A study of Mus musculus with 6 samples.

Results

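The plasminogen system is described here by 7 genes among the 41079 gene symbols in the count and FPKM tables. They are taken by symbol, and the choice was made with earlier results of these data known, as plasminogen activators (Plau, Plat), their receptor (Plaur), an inhibitor (Serpine2) and linked genes of clotting and matrix (Thbs1, F3, Procr). All 7 were listed, and all 7 had enough counts to be tested. RNA was sequenced from primary microglia, the resident macrophages of the brain, of C57Bl/6N mice aged 1 to 3 days. The cells were grown in mixed glial flasks, each seeded from the pooled brains of several neonates, fed with 20% L-929 conditioned medium, a source of the growth factor M-CSF, and collected by shaking. Control cultures (3 libraries) were kept in serum-free DMEM/F12. The other 3 libraries came from cultures labelled as stimulated with TGFbeta, IL34 and CX3CL1 (100 ng/mL each, human proteins), to which the study's methods add cholesterol, insulin-transferrin-selenium solution and a collagen IV coating, and these are called optimized. No library received 1 component alone, so the comparison asks how the genes differed under the combined condition. The study counts the libraries of a condition as biological replicates. The labels do not say whether they came from separate cultures, so the p-values measure the spread between these libraries.

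Plasminogen is an inactive protease precursor in blood and tissue fluid, which the serine proteases uPA and tPA cut to plasmin. Plasmin dissolves fibrin and degrades matrix proteins, and uPA bound to its receptor confines this activity to the cell surface. Inhibitors of the serpin family end it by trapping the activators in a covalent complex, which is then cleared by receptors such as LRP1. The plasminogen system is tied to TGF-β, since plasmin and thrombospondin 1 can release the active cytokine from its latent form. In the brain, microglia are known to make uPA and tPA.

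Plau encodes urokinase (uPA) and lies between 20886722 and 20893453 of chromosome 14 on GRCm39. Plat encodes tissue plasminogen activator (tPA) and lies between 23247709 and 23272871 of chromosome 8. Plaur encodes the urokinase receptor, a protein held on the membrane by a lipid anchor, and lies between 24161875 and 24175394 of chromosome 7. Serpine2 encodes protease nexin 1, an inhibitor of thrombin, urokinase and tPA, and lies between 79763323 and 79839144 of chromosome 1. Thbs1 encodes the matrix glycoprotein thrombospondin 1 and lies between 117941974 and 117957616 of chromosome 2. F3 encodes tissue factor, the membrane receptor that starts clotting with factor VII, and lies between 121516610 and 121528820 of chromosome 3. Procr encodes the endothelial protein C receptor, which helps to activate the anticoagulant protein C, and lies between 155593031 and 155597397 of chromosome 2. Of the 7, only Thbs1 shared exon bases with another listed gene (511 bases with Gm13986 on the opposite strand, which had a mean of 0.833 counts).

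The 250 bases before the annotated start of the canonical transcript were searched on both strands for the letters of 5 motifs. The search was made because 4 of these genes were higher in the optimized cultures, and a common regulator was not tested. The AP-1 letters TGANTCA, the site of FOS and JUN proteins, were present before Thbs1 and F3 (2 matches each) and before Procr and Plaur (1 each). These letters occurred in 4.55% of the 12343 windows of tested protein-coding genes, and at least 2 matches in 0.186%. The SMAD half-site letters CAGACA occurred before Plau, against 14.2% of windows, and the longer SMAD letters GTCTAGAC and the TATA letters TATAAA before none of the 7. The NF-kB motif was matched before Thbs1 alone, against 8.51% of windows, by a stretch that reads as a match on both strands. The windows of Serpine2 and Plat held no match to any of the 5 motifs. The AP-1 stretches are shown because 3 of the 4 genes that rose carry these letters, in capitals, as does Plaur, which did not pass the test. Each line gives 30 bases on the gene's own strand (plus in all 4), read from GRCm39 by distance from the GENCODE M39 start.
Thbs1 (chr2:117941822-117941851): gacacccttagTGAGTCAgacggaaggcag
Thbs1 (chr2:117941903-117941932): cccaccaggatTGACTCAggaggcagcttc
F3 (chr3:121517034-121517063): cgctgtTGAATCAcggtTGAGTCAcccctt
Procr (chr2:155592972-155593001): ccccaccccccTGACTCAgcggcgacctac
Plaur (chr7:24161828-24161857): acccctggagcTGACTCActctttagcaaa
The canonical starts of Serpine2 and F3 lie inside the annotated genes, because other transcripts start further upstream. Of the 250 bases of their windows, 208 and 122 fall in annotated exons. All 250 bases of the Thbs1 window fall in annotated exons too. These are not exons of Thbs1, because the window ends where that gene begins. A match describes the letters in these windows and is not evidence of binding. The first AP-1 match lay 141 bases before the start of Thbs1 and 146 before that of F3, and the single matches lay 48 bases before Procr and 36 before Plaur.

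**Figure D1:**
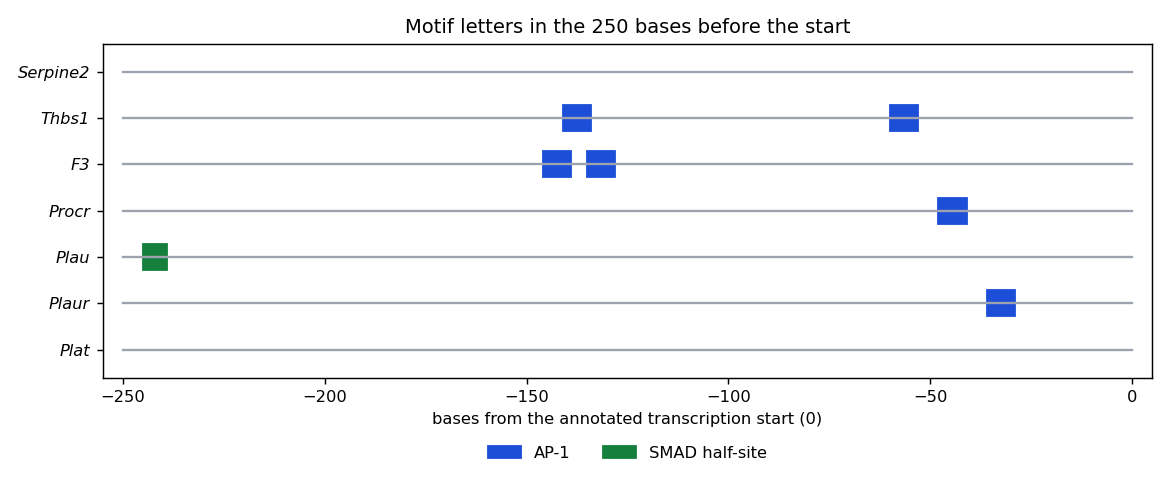
Positions of motif letters in the 250 bases before the annotated start (x axis, bases, start at 0) of the 7 genes, each line being 1 gene. AP-1 letters (blue) stand before Thbs1, F3, Procr and Plaur, and SMAD half-site letters (green) before Plau, while Serpine2 and Plat have none. Matches to the NF-kB motif are not drawn.

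The libraries held between 20628148 and 27261839 counts. Over the 14618 genes tested with edgeR's quasi-likelihood test, 29.8% had a Benjamini-Hochberg adjusted p-value under 0.05, the threshold used throughout, 14.7% being higher and 15.2% lower in the optimized cultures. With library size alone in place of edgeR's TMM scaling, 32.3% of the called genes were higher, against 49.1% with TMM, and all genes shifted by a median of -0.13 on the log2 scale. Microglial markers were abundant in every library, with a summed level between 10715 and 20641 CPM (counts scaled to the size of the library) for 10 genes, of which 6 rose and 2 fell. Optimized replicate 1 stood apart from the other two of its group, with a chi-square per degree of freedom over genes of 78.3 and 46.2 against them, where the other two gave 14.5 between themselves and the controls 10.7 to 25.8. In optimized replicate 3, the summed level of 6 fibroblast markers was 151 CPM, against 31.0 to 48.5 in the other two optimized libraries and 34.5 to 48.8 in the controls, and none of the 6 passed the test or was at 0 in any library. Of 7 endothelial markers, Flt1 and Vwf were higher, while Cldn5 and Tek were at 0 in at least 1 library and the summed level went from 92.1 to 111 CPM in control to 316 to 400.2 CPM in optimized libraries. Flt1 alone made up most of it, with 76.7 to 92.7 CPM in control and 269 to 347 CPM in optimized libraries. Of 8 astrocyte markers, 1 was called and it was lower, and the sum went from 37.9 to 41.1 CPM in control to 29.1 to 32.1 CPM in optimized libraries. Of 6 markers of oligodendrocyte precursors only Cspg4 was called, and their sum went from 42.1 to 55.7 CPM in control to 455 to 636 CPM in optimized libraries. Most of this sum was Cspg4 alone, with 26.9 to 39.5 CPM in control and 435 to 618 CPM in optimized libraries. Of 6 oligodendrocyte markers only Mbp was called, higher by 0.34 on the log2 scale, and the sum went from 134 to 151 CPM in control to 162 to 199 CPM in optimized libraries. No marker of neurons or mural cells was called, but only 4 of 6 neuron markers and 2 of 6 mural markers had enough counts to be tested. At 0 in some library were Snap25 and Syt1 of 6 neuron markers, and Rgs5, Kcnj8 and Abcc9 of 6 mural markers. The neuron sums stayed between 4.91 and 7.11 CPM. The mural sum was 15.3 CPM in optimized replicate 1, against 4.47 and 8.90 CPM in optimized replicates 2 and 3 and 5.46 to 6.61 CPM in the controls. Rgs5 had 37 counts in optimized replicate 1 and at most 1 in any other library. In bulk RNA, a different share of some cell type and a different amount of RNA per cell cannot be told apart.

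Of the 7 genes, 4 rose (Serpine2, Procr, Thbs1 and F3), none fell, and the 3 genes of urokinase, tPA and the urokinase receptor did not pass the test. Of all genes tested, 14.7% were called in that direction. The median log2 fold change of the 7 was 0.71, against 0.0079 over all genes tested. In TMM-scaled CPM, every optimized library lay above every control library in 5 of the 7, which was the case for 21.4% of all genes tested. They lay below the controls in none, against 22.5%. These 5 are the 4 genes that rose and Plau, whose libraries overlapped in FPKM. The 4 calls held under each of the 15 alternatives tried, among them the fits without optimized replicate 1 and without optimized replicate 3.

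**Figure D2:**
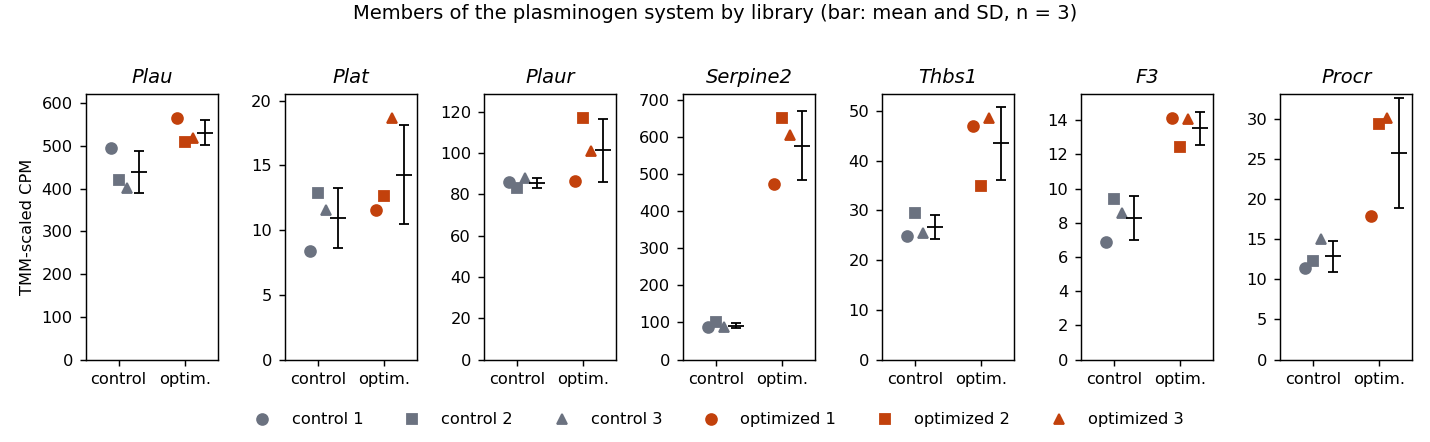
TMM-scaled CPM (y axis, from 0, a scale per gene) of the 7 genes in 3 control (grey) and 3 optimized (orange) libraries, with the mean and SD of each group in black. Serpine2 goes from 86.8 to 99.9 CPM in control to 472 to 650.2 CPM in optimized libraries, and the libraries of Plat and Plaur overlap.

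Serpine2 had the largest difference. Its level was 86.8, 99.9 and 88.6 CPM in control libraries 1 to 3 and 472, 650.2 and 607 CPM in optimized libraries 1 to 3. The lowest optimized library was far above the highest control library. By edgeR the fold change was 6.28 (95% interval 5.11 to 7.71), or 2.65 on the log2 scale (SE 0.13, adjusted p = 5.04e-07). Among the 14618 genes tested it stood at place 138 from the top by log2 fold change. Serpine2 is among the genes the study labelled in its own plot of these libraries, so its direction here is not independent evidence. Without optimized replicate 3, the library with the highest fibroblast marker sum, its log2 fold change was 2.61, and without optimized replicate 1 it was 2.78.

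Procr followed, with 11.4, 12.2 and 15.0 CPM in control libraries 1 to 3 and 17.9, 29.4 and 30.1 CPM in optimized libraries 1 to 3. The groups did not overlap, but optimized library 1 lay nearer to the controls than to the other two optimized libraries. edgeR put the log2 fold change at 1.00 (SE 0.20, 95% interval 0.56 to 1.44, adjusted p = 0.00356). Protein C receptor is best known from endothelium, and of the 7 endothelial markers Flt1 and Vwf rose by 1.85 and 1.84 on the log2 scale, Pecam1, Cdh5 and Kdr did not pass, and Cldn5 and Tek had at most 2 and 7 counts in a library. The log2 fold change was 0.87 without optimized replicate 3 and 1.20 without optimized replicate 1 (adjusted p = 0.0169 and 1.67e-06 by edgeR). The part of endothelial RNA in this difference was not tested.

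Thbs1 had 24.9, 29.4 and 25.5 CPM in the controls and 46.9, 35.0 and 48.5 CPM in the optimized libraries. Here optimized library 2 was the lowest of its group, and it was still above all controls. edgeR put the log2 fold change at 0.71 (SE 0.13, 95% interval 0.41 to 1.01, adjusted p = 0.00288). Without optimized replicate 3, the library with the highest fibroblast marker sum, the log2 fold change was 0.62 (adjusted p = 0.0161 by edgeR). Fibroblasts also make thrombospondin 1, and the part of fibroblast RNA in this difference was not tested.

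F3 had the fewest counts of the 4, with 157, 230 and 235 counts in control and 298, 292 and 291 counts in optimized libraries. Scaled, these were 6.86, 9.38 and 8.60 CPM against 14.1, 12.4 and 14.1 CPM. The optimized libraries lay close together and above all controls. edgeR put the log2 fold change at 0.71 (SE 0.14, 95% interval 0.39 to 1.02, adjusted p = 0.00379).

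Plau had the highest FPKM of the 7 genes in the controls. Its level was 495, 419 and 401 CPM in control libraries 1 to 3 and 564, 509 and 518 CPM in optimized libraries 1 to 3. In these scaled values all optimized libraries were above all controls, with control library 1 nearest to them. In FPKM the groups overlapped, as control library 1 (204) lay above optimized libraries 2 and 3 (178 and 193). The difference of 0.28 on the log2 scale (SE 0.10) missed the threshold, with adjusted p = 0.0741 by edgeR. The 95% interval of the fold change, 1.03 to 1.42, lay wholly below that of Serpine2. The call depended on the tool and the libraries, as DESeq2 gave an adjusted p-value of 0.0408 and edgeR without control replicate 1 gave 0.0414. The size of the difference depended on the scaling. With library size alone it was 0.15 on the log2 scale (adjusted p = 0.421 by edgeR). On log2(FPKM + 1) it was 0.14 (adjusted p = 0.431 by limma).

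Plaur, the receptor, had 85.8, 83.2 and 87.8 CPM in the controls and 86.3, 117 and 101 CPM in the optimized libraries. Optimized library 1 lay within the control range and the other two above it. The difference was 0.24 on the log2 scale (SE 0.11, adjusted p = 0.132 by edgeR), with a 95% interval of the fold change from 0.997 to 1.41. Without optimized replicate 1 it was 0.35 (adjusted p = 0.00399 by edgeR). With library size alone it was 0.11 (adjusted p = 0.423 by edgeR), and on log2(FPKM + 1) 0.093 (adjusted p = 0.490 by limma).

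Plat had 8.35, 12.9 and 11.5 CPM in the controls and 11.6, 12.6 and 18.6 CPM in the optimized libraries, from 191 to 385 counts. Only optimized library 3 lay outside the control range. The difference was 0.38 on the log2 scale (SE 0.21, adjusted p = 0.208 by edgeR), with a 95% interval of the fold change from 0.943 to 1.80. Without that library, the one with the highest fibroblast marker sum, the log2 fold change was 0.15, and without optimized replicate 1 it was 0.51 (adjusted p = 0.0420 by edgeR). The part of fibroblast RNA in the value of optimized library 3 was not tested.

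Levels of different genes were compared as FPKM, the deposited value per length of gene. In the controls the order was Plau with 178 ± 24.5 FPKM (SD, n = 3), Plaur with 50.7 ± 1.01, Serpine2 with 36.5 ± 3.65, then Procr with 4.66 ± 0.52, Thbs1 with 4.62 ± 0.52, F3 with 4.48 ± 0.71 and Plat with 4.17 ± 0.90. The first 3 were separated from each other and from the rest in every control library, while the last 4 overlapped. In the optimized cultures Serpine2 stood first with 207 ± 26.9 FPKM (SD, n = 3) beside Plau with 195 ± 18.2, and these overlapped. Plaur followed with 54.3 ± 6.00 FPKM, and Procr (8.46 ± 2.10), Thbs1 (6.88 ± 1.41), F3 (6.67 ± 0.74) and Plat (4.96 ± 1.38) again overlapped with their neighbours in this order. Serpine2 thus moved from percentile 89.1 to percentile 98.3 of the FPKM of all tested genes, and Plat stood at percentiles 46.1 and 51.9.

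**Figure D3:**
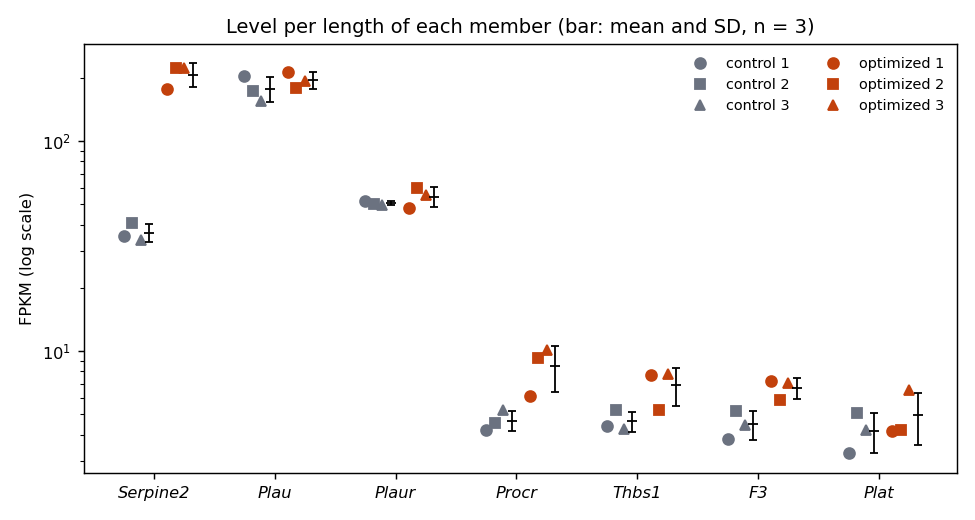
FPKM (y axis, log scale) of the 7 genes in 3 control (grey) and 3 optimized (orange) libraries, with mean and SD in black, ordered by the optimized mean. The mean of Serpine2 goes from 36.5 to 207 FPKM, beside 178 and 195 FPKM for Plau, and the lowest 4 genes lie between 3.25 and 10.1 FPKM in every library.

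The place of Serpine2 beside Plau rests on the length assigned to it. The FPKM values imply a length of about 2624 bases for Serpine2 and 2578 for Plau, while all GENCODE M39 exons of the genes merged cover 12315 and 2567 bases. With the merged exons as length, the optimized cultures had 206.6 CPM per kilobase of Plau and 46.8 of Serpine2, and with the canonical transcript, 226 and 261. The gap between Serpine2 and Procr in the controls also rests on length. They had 7.45 and 6.31 CPM per kilobase with merged exons, and 41.5 and 8.01 with the canonical transcript. The lengths implied for Plaur, Plat, F3 and Procr differed from their merged exons as well. The difference between the conditions within a gene does not depend on its length.

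Ratios of 2 genes within a library need no scaling between libraries and compare RNA levels, among them those of activators and an inhibitor. Protein amounts and protease activity were not measured in these libraries. In FPKM, Plau exceeded Serpine2 by 5.80, 4.27 and 4.60 times in control libraries 1 to 3, and the ratio was 1.22, 0.796 and 0.870 in optimized libraries 1 to 3. On counts this ratio was 5.14-fold lower, a difference of -2.36 on the log2 scale with SDs of 0.23 in control and 0.32 in optimized libraries. Plat to Serpine2 was 4.80-fold lower, from a mean FPKM ratio of 0.114 to 0.0239. The difference in both was larger than the spread between libraries, with no overlap of the groups. Both ratios are taken to Serpine2, so they mostly restate its log2 fold change of 2.65 and are not separate results. Plau and Plat themselves did not pass edgeR's test. Plau to Plaur (0.046) and Plau to Plat (-0.097) had small log2 differences, and their libraries overlapped. F3 to Tfpi, the gene of its inhibitor, was 0.36 higher on the log2 scale without overlap, and F3 to Procr differed by -0.25 with overlap. Of these 6 ratios, the 3 without overlap reached p = 0.1 in the two-sided exact permutation test, the lowest value possible with 3 libraries a group, and an adjusted p of 0.2 over the 6, so none could pass the threshold.

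**Figure D4:**
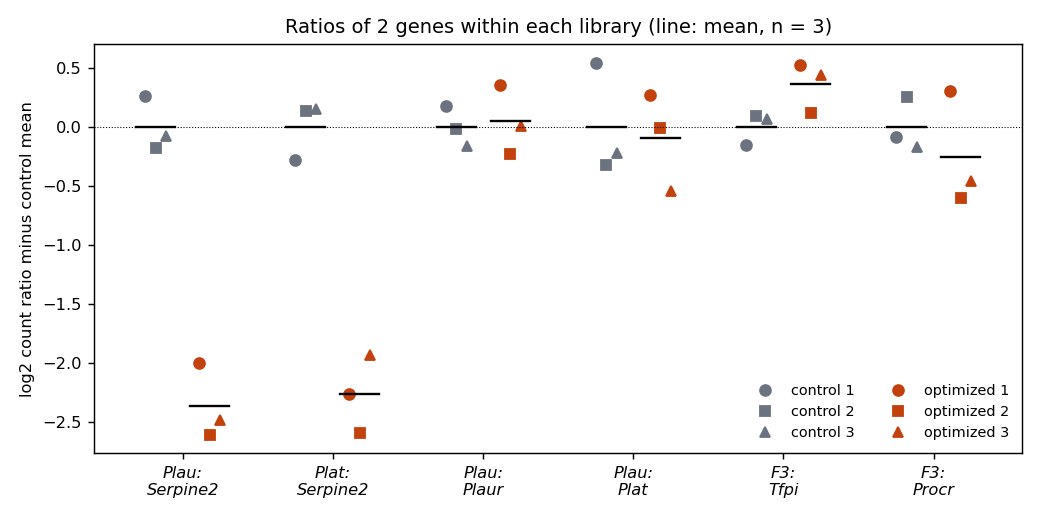
Log2 ratio of the counts of 2 genes in each library, minus the mean of the control libraries (y axis), for 6 pairs, with control libraries in grey, optimized in orange and group means as black lines. Plau and Plat against Serpine2 have means of -2.36 and -2.26 in the optimized libraries, while Plau against Plaur or Plat overlap.

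Other genes of plasminogen activation were taken from a list of 28. Of these, 23 were tested, 12 rose, 3 fell and 8 did not pass, where 14.7% of all genes tested were higher and 15.2% lower. The median log2 fold change was 0.67, against 0.0079 over all genes. Plasminogen itself (Plg) and Cpb2 had no count in any library, and Serpinf2, Serpini1 and Vtn had too few to test. Among the inhibitors, Serpinb2, the gene of PAI-2, rose by 1.56 on the log2 scale from a mean of 1.17 to 3.49 CPM. Of the receptors that hold plasminogen on cells, Plgrkt (0.71) and Eno1 (0.99) rose, S100a10 fell by 0.46, and Anxa2, which binds with it, had -0.31 (adjusted p = 0.0963 by edgeR). Exons of Plgrkt share 219 bases with Cd274 on the opposite strand, which had 1.22 times its mean count, and reads of Eno1 may be shared with its near-identical copy Eno1b. S100a10 lost its call without any one of the 3 controls or without optimized replicate 1 (adjusted p between 0.0565 and 0.136 by edgeR).

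Of the clearance receptors, Lrp1 had a log2 fold change of 0.67 (adjusted p = 0.0390 by edgeR) with overlapping libraries, at 1600, 1231 and 1125 CPM in the controls and 2860, 1600 and 1850 CPM in the optimized libraries. It lost the call in 7 alternatives, among them the edgeR fits without control replicate 2 (adjusted p = 0.150), control replicate 3 (0.137) or optimized replicate 3 (0.0535). Its chaperone Lrpap1 rose from 175 ± 10.5 to 726 ± 142 CPM (mean ± SD of 3 libraries), or by 2.06 on the log2 scale. Mrc2, a collagen receptor that associates with the urokinase receptor, rose most in the list, from 1.42 ± 0.41 to 25.9 ± 1.55 CPM (mean ± SD of 3 libraries), or by 4.19 on the log2 scale. Igf2r, which binds the urokinase receptor and latent TGF-β, fell by 0.73. Integrins known as partners of the urokinase receptor or of vitronectin went up in part, with log2 fold changes of 3.10 for Itgb5, 1.26 for Itgav, 1.19 for Itgb3, 0.99 for Itga5 and 0.82 for Itgam. Itgb2 (0.23) and Itgb1 (-0.19) did not pass. Of the 2 membrane serine proteases in the list, St14 rose by 0.80 and Hpn fell by 1.45.

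**Figure D5:**
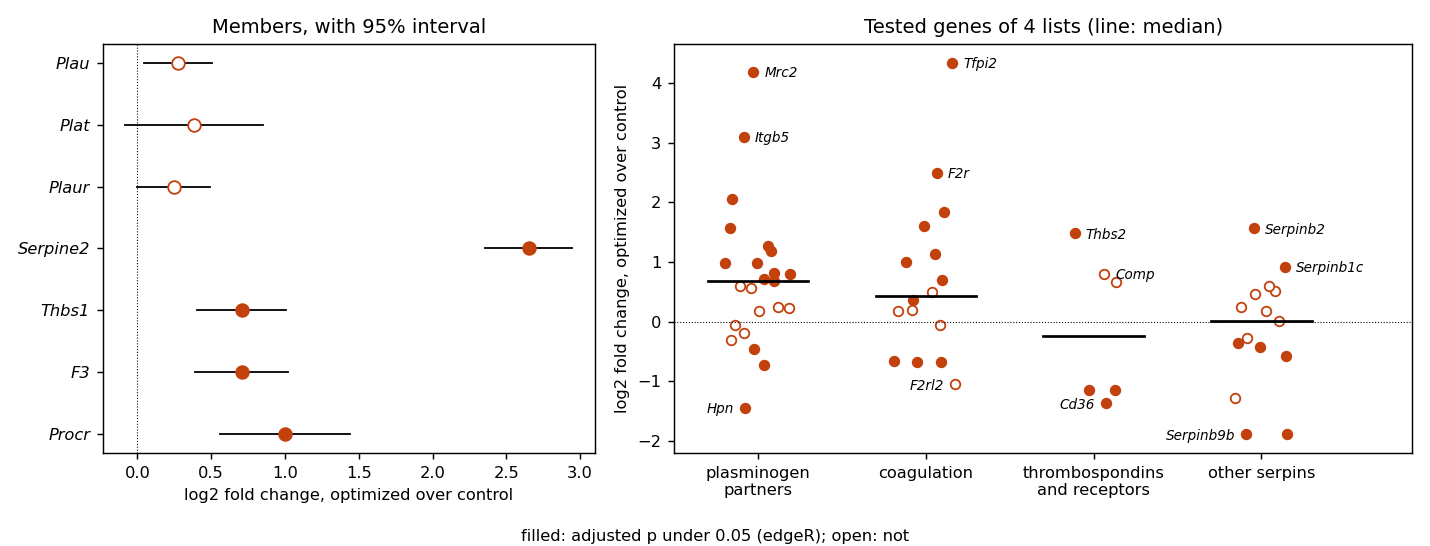
Log2 fold changes (optimized over control) of the 7 members with 95% intervals (left, x axis) and of the tested genes of 4 lists (right, y axis), where filled points passed edgeR's threshold and black lines are list medians. Serpine2 stands apart from the other members at 2.65, and the list medians are 0.67, 0.43, -0.24 and 0.015 from left to right.

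The list of 36 further coagulation genes had 16 tested, of which 8 rose, 3 fell and 5 did not pass, against 14.7% higher and 15.2% lower among all genes, so that the share that fell was near that of all genes. The median log2 fold change was 0.43, against 0.0079. The other 20 had too few counts, and these were mostly clotting factors made in the liver, such as F2, F7 and F10, with at most 7 counts in a library. Tfpi, the gene of an inhibitor of tissue factor, rose from 36.3 ± 2.50 to 46.5 ± 3.83 CPM (mean ± SD of 3 libraries). On the log2 scale this was 0.36 (adjusted p = 0.0194 by edgeR). With library size alone the log2 fold change of Tfpi was 0.23 (adjusted p = 0.0981 by edgeR), and it also lost its call in the 3 limma fits on FPKM and when any one library other than control replicate 2 or optimized replicate 1 was left out (adjusted p between 0.0548 and 0.0976 by edgeR). Tfpi2 rose from 0.13 to 2.80 CPM, with 0, 3 and 7 counts in control libraries 1 to 3. F2r, the gene of the thrombin receptor PAR1, rose from 1.77 ± 0.16 to 10.1 ± 2.02 CPM (mean ± SD of 3 libraries), or by 2.50 on the log2 scale. Thbd, the gene of thrombomodulin, which acts with Procr on protein C, fell by 0.67 from 3.23 to 2.03 CPM (adjusted p = 0.0363 by edgeR) and lost its call without any one library other than optimized replicate 1 (adjusted p between 0.0783 and 0.104 by edgeR).

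The transglutaminase gene F13a1 (1.60), Vwf (1.84), the vitamin K cycle genes Ggcx (1.00) and Vkorc1 (1.13) and Mcfd2 (0.69), which helps factors V and VIII out of the endoplasmic reticulum, were also higher. Exons of Ggcx share 791 bases with Mat2a on the opposite strand, which had 7.54 times its mean count. Gas6 (-0.68) and Anxa5 (-0.68), which bind phosphatidylserine on dying cells, were lower, and Pros1, the gene of protein S, had -0.062. Proc, the gene of protein C, had no count in any library.

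Among 7 thrombospondin relatives and receptors, 6 were tested, of which 1 rose, 3 fell and 2 did not pass, against 14.7% higher and 15.2% lower among all genes. The receptors Cd36 and Cd47 fell by 1.38 and 1.16 on the log2 scale, and Sirpa, a partner of Cd47, by 1.15. Cd36 went from 394 ± 14.7 to 152 ± 6.60 CPM (mean ± SD of 3 libraries). Thbs2 rose by 1.48 from 1.68 to 4.73 CPM. So Thbs1 differed in the opposite direction to Cd36 and Cd47, its 2 receptors in this list, with no overlap of libraries in any of the 3. Of all genes tested, 21.4% had every optimized library above every control library and 22.5% below. Other proteins that bind thrombospondin 1 were not part of this list.

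Of 63 further serpin symbols, 15 were tested, of which 2 rose (Serpinb2 and Serpinb1c), 5 fell and 8 did not pass, with a median log2 fold change of 0.015 against 0.0079 over all genes. The share that rose was near the 14.7% of all genes, and 15.2% of all genes were lower. Of the 15, Serpinb2 and Serping1 are also in the list of plasminogen genes, and 27 symbols had no count in any library. Serpinb6a, Serpinb6b and Serpinb9, intracellular inhibitors, fell by 0.43, 0.37 and 0.58, and Serpinb12 and Serpinb9b fell at about 1 CPM or less. Of the 5 that fell, Serpinb9 alone kept its call in all alternatives. Clade b genes are similar in sequence, so the split of reads between them is uncertain. Over these and Serpine2, 64 symbols, the summed level was between 472 and 513 CPM in control and between 763 and 992 CPM in optimized libraries. Serpine2 made up 17.4% to 19.5% of this sum in control and 62.0% to 65.5% in optimized libraries, and Serpinb6a went from between 55.7% and 56.9% to between 22.6% and 23.2%.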

How the data were processed

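Reads from 6 microglia libraries were mapped by the authors to mm39 (GRCm39) with HISAT2 and counted per gene with featureCounts. The authors deposited raw counts, without normalization, and FPKM values for 41079 symbols. Each deposited FPKM value equalled the count divided by a gene constant and a library constant. Tool versions, annotation and strand setting are not given in the sources used here.

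Counts were analysed with edgeR 4.0.16 in R 4.3.3. Genes were kept with filterByExpr, scaled with TMM factors and tested with glmQLFit and glmQLFTest, with Benjamini-Hochberg adjustment over 14618 genes. Standard errors are the log2 fold change divided by the square root of F. Ratios used counts plus 0.5. The steps were tested on simulated counts. Totals of 20628148 to 27261839 counts limit genes with few counts.

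Groups and replicate numbers came from the labels. Alternatives were RLE factors, library size, DESeq2 1.42.0, other count filters, the replicate block, leaving out each library, and limma 3.58.1 on log2(FPKM + 1) and log2(FPKM + 0.1), a scale that understates changes of low genes. Positions come from GENCODE M39. Named genes are the 7 members, list genes past the threshold, and the 3 genes nearest in profile to each member that passed. Genes below the threshold are given as values. A gene of the lists is not reported here and was left out of their counts, medians and sums. The members and lists were chosen with earlier results of these data known.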

Additional observations from a re-analysis of the deposited data

How the results depend on the processing

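The 7 members kept their direction under all 15 alternatives, and the calls of Serpine2, Procr, Thbs1 and F3 held in each. Plau passed the threshold with DESeq2 (log2 fold change 0.28) and with the replicate block (0.28, adjusted p = 0.0262 by edgeR). The replicate numbers are shared between conditions, but the deviations of same-numbered libraries correlated at 0.27, -0.012 and 0.18 for numbers 1 to 3, and optimized replicate 2 correlated best with control replicate 3 (0.19), so the numbers were not taken to pair the libraries. The block raised the genes called from 4360 to 4924. Leaving out 1 library gave log2 fold changes of 0.21 to 0.37 for Plau, 0.12 to 0.35 for Plaur and 0.15 to 0.51 for Plat, and passed the threshold in 1 fit each. It gave 2 to 4 higher and 2 to 7 lower serpins, with 2 lower without control replicate 1, 3 lower without control replicate 3 and 4 higher without optimized replicate 1. The log2 ratio of Plau to Plaur ranged from -0.11 to 0.18 and that of Plau to Plat from -0.28 to 0.17, changing sign without control replicate 3 (-0.034) or optimized replicate 1 (-0.11), and without control replicate 1 (0.17) or optimized replicate 3 (0.13). The plasminogen partners that fell numbered 5 in place of 3 with library size alone and with each of the 3 limma fits, and the share of calls that were higher was 31.1%, 31.3% and 28.3% in these limma fits. Thrombospondin relatives that rose numbered 0 where a mean of 1 FPKM was required, which leaves out Thbs2. Serpins that rose numbered 4 without a filter and those that fell 3 with at least 10 counts in every library, where fewer were tested. With merged exons as length, the log2 ratio of Plau to Serpine2 per length was 4.51 in place of 2.28 in control and 2.15 in place of -0.083 in optimized cultures. With canonical transcripts, an alternative chosen after seeing the data, it was 2.17 and -0.20. Of 532 values for 36 other named genes, 500 kept direction and call, 32 kept direction and lost the call, and 0 reversed.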

Other observations

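Genes with the profile most like that of each member that rose were sought over the 6 libraries, among 9806 tested genes with a mean of at least 5 CPM, by the root mean square distance of log2 CPM centred on the gene's mean. These distances mostly follow the difference between the conditions and carry no test. Nearest to Serpine2 were Ldhb (distance 0.10, log2 fold change 2.48), the gene of a lactate dehydrogenase subunit, Ang (0.11, 2.78), the gene of the ribonuclease angiogenin, and H2-Ob (0.12, 2.76), the gene of a chain of the class II modulator H2-O. Nearest to Thbs1 were Clcf1 (0.058), the gene of a cytokine of the IL-6 family, Magi3 (0.077) and Bcr (0.091). Nearest to F3 were the zinc transporter gene Slc39a4 (0.063), Tmem39a (0.065) and Erlec1 (0.091), whose product takes part in the quality control of secreted proteins. Procr lay nearest to Phlda3 (0.052), Cercam (0.067) and H2-DMb1 (0.078), the gene of a class II peptide loading chain.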
